A study of Mus musculus with 2 samples.

Results

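The gated cells with Magea9 were 1368 of 10191 gated cells in the tumour library labelled SPP1 (13.4%, 95% interval 12.8 to 14.1%), out of 28346 cell barcodes in the series. They were chosen by measured expression, as cells with at least 1 UMI (unique molecular identifier, 1 counted RNA molecule) of Magea9 after a gate for tumour cells: at least 3000 UMIs, at most 15% mitochondrial UMIs, at least 5 UMIs of Hmga2, Sox9, Tafa1 and Hoxa9 together, and no UMI of Ptprc. They are set here against 6123 low cells, which are gated cells of the same library with no Magea9 and at most 1 UMI of Pcdh9 and Nrep together. The other 2700 gated cells, with no Magea9 and at least 2 UMIs of Pcdh9 and Nrep, are called intermediate. Since measured Magea9, Pcdh9 and Nrep fixed the sets, their levels describe the choice, and every gene of the same comparison is a description too.

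The tumours grew subcutaneously in C57BL/6 mice from the mouse line MC38, whose genotype label is wild type. The cells were pools rather than single clones and carried a lentivirus with SPP1 or an empty vector. SPP1 encodes osteopontin, which cells secrete and which CD44 and integrins bind. All mice were treated with anti-PD1, which blocks a brake on T cells, from day 7 over 2 weeks (10 mg/kg, given 2 times per week), and each group is 1 tumour from 1 mouse. No untreated tumour was analysed here, and a difference between the libraries cannot be told apart from one between 2 mice.

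Magea9 belongs to the MAGE-A family on the X chromosome, genes that are active in male germ cells, kept silent in most other tissues with the help of DNA methylation, and found again in many tumours. Pcdh9 encodes a protocadherin, a cell adhesion protein best known from neurons, and Nrep a small protein of regenerating neurons and contractile fibroblasts. Pdgfc is a ligand of the PDGF receptor alpha, and Col4a5 is a chain of the collagen IV of basement membranes. Interferon gamma, made by T and NK cells, raises the genes for antigen presentation in the cells that it reaches.

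There were 14029 barcodes with 164599332 UMIs in the SPP1 library, and 14317 barcodes with 164247003 UMIs in the vector library. The median gated cell had 12259 UMIs in the SPP1 library and 12953 in the vector library. The labels call the cells colon adenocarcinoma, yet Epcam and Cdx2 had no UMI in the 1368 cells, 7 of 15 epithelial markers were at 0, and Krt8 had 5 UMIs in all (0.225 CPM in full counts). The 15 markers summed to 4.46 CPM in Magea9-positive and 4.92 CPM in low cells in full counts. These markers therefore give neither set an epithelial identity, and the cells are named here by their genes. Krt14, a keratin outside this list, was present and is given further on. Xist, the RNA of the inactive X chromosome, was seen in 3.95% of the Magea9-positive cells, against 98.6% of 292 Ptprc-positive cells of the same library without a gate-gene UMI.

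Promoter sequences from RefSeq (GRCm38.p6) are printed here for members of both gene groups on which the results turn. Pdgfc and Col4a5 are the markers among the higher genes that the rule did not use, and H2-Aa and H2-Eb1 stand for the class II genes among the lower ones. Each run gives the 250 bases before the annotated start, 5′ to 3′ on the gene's strand. Capitals mark the ETS core GGAA on either strand (TTCC) in the promoters of Pdgfc (chr3:81036166-81036415, plus strand) and Col4a5 (chrX:141475169-141475418, plus strand). In those of H2-Aa (chr17:34287824-34288073, minus strand) and H2-Eb1 (chr17:34305617-34305866, plus strand) they mark ATTGG on either strand (CCAAT), the core of the Y box of class II promoters.
Pdgfc: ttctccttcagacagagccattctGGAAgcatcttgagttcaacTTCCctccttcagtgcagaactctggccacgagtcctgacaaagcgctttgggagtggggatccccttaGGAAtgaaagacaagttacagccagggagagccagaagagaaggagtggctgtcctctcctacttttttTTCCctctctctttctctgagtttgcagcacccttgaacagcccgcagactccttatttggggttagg
Col4a5: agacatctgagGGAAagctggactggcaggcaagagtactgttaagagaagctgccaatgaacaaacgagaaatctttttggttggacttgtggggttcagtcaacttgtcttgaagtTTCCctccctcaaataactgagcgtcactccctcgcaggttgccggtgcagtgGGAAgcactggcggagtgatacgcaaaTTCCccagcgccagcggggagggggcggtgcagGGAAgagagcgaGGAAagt
H2-Aa: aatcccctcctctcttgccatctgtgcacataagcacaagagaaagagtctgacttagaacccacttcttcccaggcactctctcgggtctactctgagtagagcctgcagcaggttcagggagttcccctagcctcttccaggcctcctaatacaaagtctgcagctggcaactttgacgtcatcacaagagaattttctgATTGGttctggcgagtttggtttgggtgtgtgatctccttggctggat
H2-Eb1: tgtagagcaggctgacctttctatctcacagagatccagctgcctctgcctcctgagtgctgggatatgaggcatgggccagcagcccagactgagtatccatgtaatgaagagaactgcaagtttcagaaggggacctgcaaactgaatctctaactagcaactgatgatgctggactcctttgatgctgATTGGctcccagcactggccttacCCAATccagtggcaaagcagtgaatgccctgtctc
GGAA was present 4 times before Pdgfc and 6 times before Col4a5, numbers that 33.4% and 8.69% of 32851 promoters of the table reached. ATTGG was present 1 time before H2-Aa and 2 times before H2-Eb1, and 33.9% of all promoters held at least 1 match. The promoters of Pdgfc, Col4a5, H2-Aa and H2-Eb1 held 3, 10, 3 and 0 CG sites, against a median of 6 over the table.

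Magea9 was close to private to the SPP1 library. In the vector library, which the rule did not use, 3 of 9605 gated cells had a Magea9 UMI (0.0312%, 0.00644 to 0.0913%), each a single UMI. After every cell had been thinned to 3000 UMIs, 534 gated cells of the SPP1 library (5.24%) and none of the vector library kept a UMI. The interval from full counts remains the limit for the vector library, since thinning also loses UMIs. Among Ptprc-positive cells without a gate-gene UMI, 2 of 292 in the SPP1 library (0.685%, 0.0831 to 2.45%) and 0 of 455 in the vector library (which allows up to 0.659%) had Magea9, at median depths of 7216 and 7554 UMIs.

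Of the Magea9-positive cells, 624 had 1 UMI of the gene and 744 had 2 or more. The cells just inside the rule, with 1 UMI, were thus almost as many as all others, and 8823 gated cells of the SPP1 library lay just outside it with none. The share of gated cells with Magea9 was 9.54%, 13.3%, 13.4% and 17.5% in 4 equal groups of cells from the shallowest to the deepest. Some cells called low or intermediate may therefore hold the transcript unseen. As a description, Magea9 reached 160 CPM (UMIs per 1000000 UMIs of a set) in the thinned Magea9-positive cells.

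**Figure D1:**
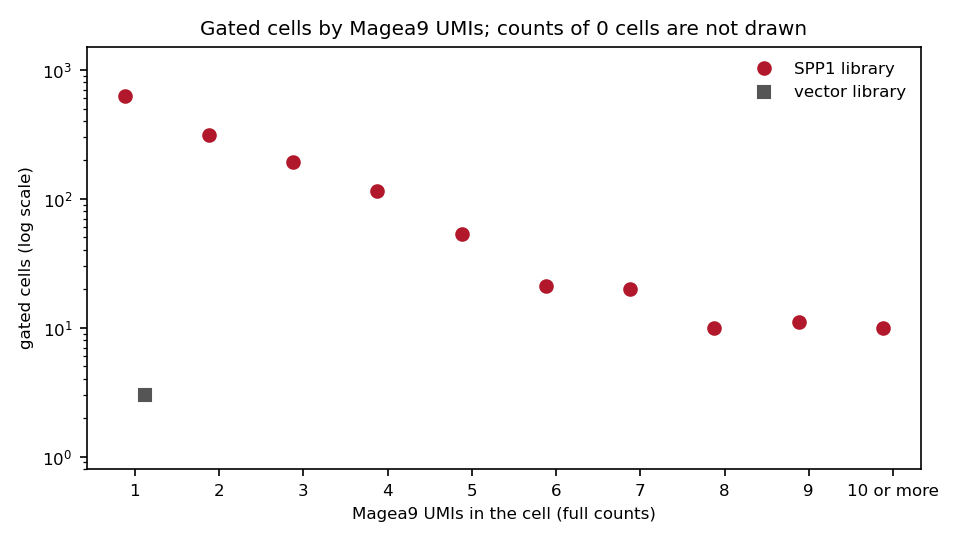
Number of gated cells (log scale) with each number of Magea9 UMIs, in the SPP1 library (red circles) and the vector library (grey squares). The SPP1 library runs from 624 cells with 1 UMI to 10 cells with 10 or more, and the vector library has 3 cells, all with 1 UMI.

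No other MAGE-A gene came with Magea9. Of 12 other Magea genes in the table, 11 had no UMI in the 1368 cells, and the remaining one, Magea2, had 1. The 5 annotated genes on each side of Magea9 had no UMI in the Magea9-positive cells either, Slitrk4, a neuronal adhesion gene, among them. This was not particular to these cells, since only 1 of the 10 genes had a UMI in gated cells of either library. MAGE genes that many tissues express were present in both sets. Maged2, which encodes a widely expressed MAGE protein, was at 39.0 CPM in Magea9-positive and 17.4 CPM in low cells, a log2 ratio of 1.16 (0.88 to 1.44). Maged1, a partner of the p75 neurotrophin receptor, was at 279 and 214 CPM in the same order. Of 16 measured genes of the DNA methylation machinery, none was past 1.5-fold either way and the list's median was -0.02. Over all 10477 genes compared 2.22% were past it higher and 5.5% lower, so few of 16 would be at these shares. Dnmt1, the maintenance methyltransferase, had 99.9 CPM in Magea9-positive cells and 97.7 CPM in low cells, and Uhrf1, which brings it to replicated DNA, had 110 and 133 CPM.

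The 4 other marker genes overlapped with Magea9 in part. In full counts 206 Magea9-positive cells had all of Pcdh9, Nrep, Pdgfc and Col4a5, 437 had 3 of them, 412 had 2, 252 had 1 and 61 had none. Pcdh9 was seen in 23.8% of the thinned Magea9-positive cells, 32.4% of intermediate cells and 2.37% of low cells, and Nrep in 40.3%, 45.6% and 398 of the 6123 low cells. As the rule keeps these genes low in the low cells, the gap only restates it.

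Pdgfc and Col4a5 were not used by the rule, and they parted ways. Pdgfc was at 133 CPM in Magea9-positive cells, against 63.7 CPM in intermediate, 55.5 CPM in low and 30.3 CPM in low cells of the vector library. It was as high, at 126 CPM, in the 420 Magea9-positive cells with at most 1 UMI of Pcdh9 and Nrep. The rule sets these apart from low cells by Magea9 only, but does not match the sets in the other genes. In full counts Pcdh9 was seen in 12.9% of them and 8.15% of low cells, and Nrep in 32.9% and 20.6%. After thinning the shares were 2.62% and 2.37% for Pcdh9, and 6.43% and 6.50% for Nrep. Over the whole sets Pdgfc was thus high in Magea9-positive cells with and without Pcdh9 and Nrep. Within cluster 2 of the clustering described further on, Pdgfc was at 123 CPM in both Magea9-positive and low cells. Col4a5 was at 67.7 CPM in Magea9-positive, 63.1 CPM in intermediate and 26.3 CPM in low cells, and at 37.3 CPM in the same 420 cells.

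Over 10477 genes with at least 100 UMIs in both sets together, 233 (2.22%) were at least 1.5-fold higher and 576 (5.5%) at least 1.5-fold lower in Magea9-positive than in low cells. For genes of 1000 UMIs or more the median absolute log2 ratio was 0.130. Between the low cells of the 2 libraries it was 0.106. Depth after thinning was equal by construction, and the median cell had 1634 genes in the Magea9-positive set and 1647 in the low set. Mitochondrial UMIs were 1.78% and 1.67% of the median cell's UMIs in these sets, and predicted doublets 4.39% and 1.63% of cells.

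The 15 genes named as higher were led by Postn, Psd3, Rora, Col4a5 and Id3. Postn encodes periostin, a matrix protein of activated fibroblasts, and was at 54.6 CPM in Magea9-positive, 41.5 CPM in intermediate and 18.5 CPM in low cells, a log2 ratio of Magea9-positive to low cells of 1.56 (1.31 to 1.81). In the 420 Magea9-positive cells with little Pcdh9 and Nrep it was at 15.1 CPM, no higher than in low cells. Psd3, an exchange factor for the small GTPase ARF6, was at 175 CPM in Magea9-positive and 65.2 CPM in low cells (log2 ratio 1.42, 1.29 to 1.56), and at 128 CPM in the 420 cells. Id3, which blocks helix-loop-helix transcription factors, was at 163 CPM in Magea9-positive and 63.5 CPM in low cells (log2 ratio 1.36), but at 72.2 CPM in the 420 cells. Psd3 and Pdgfc thus lay well above their low-cell levels in these 420 cells, whereas Postn and Id3 lay near them.

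The other named genes had log2 ratios of 0.88 to 1.39. Rora, a nuclear receptor, was at 94.5 CPM in Magea9-positive and 36.1 CPM in low cells. Crabp1, which binds retinoic acid in the cytosol, was at 219 CPM in Magea9-positive and 112 CPM in low cells, and at 204 CPM in the 420 cells. Mex3b, an RNA-binding protein, was at 105 and 46.5 CPM in Magea9-positive and low cells. Prtg, an immunoglobulin-like receptor of the embryo, was at 82.1 and 39.5 CPM in them, and Sgk1, a kinase induced by serum and glucocorticoids, at 987 and 537 CPM. Lsp1, an actin-binding protein, F2r, the thrombin receptor, and Loxl2, a collagen crosslinking enzyme, complete the group. 2 further RNAs stood out by size and were chosen after their values were seen. Gm12648, a transcript without a described function, was at 267 CPM in Magea9-positive cells, 124 CPM in intermediate, 59.4 CPM in low and 11.8 CPM in low cells of the vector library. Bmp2, a bone morphogenetic protein, was at 14.9 CPM in Magea9-positive and 2.83 CPM in low cells.

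**Figure D2:**
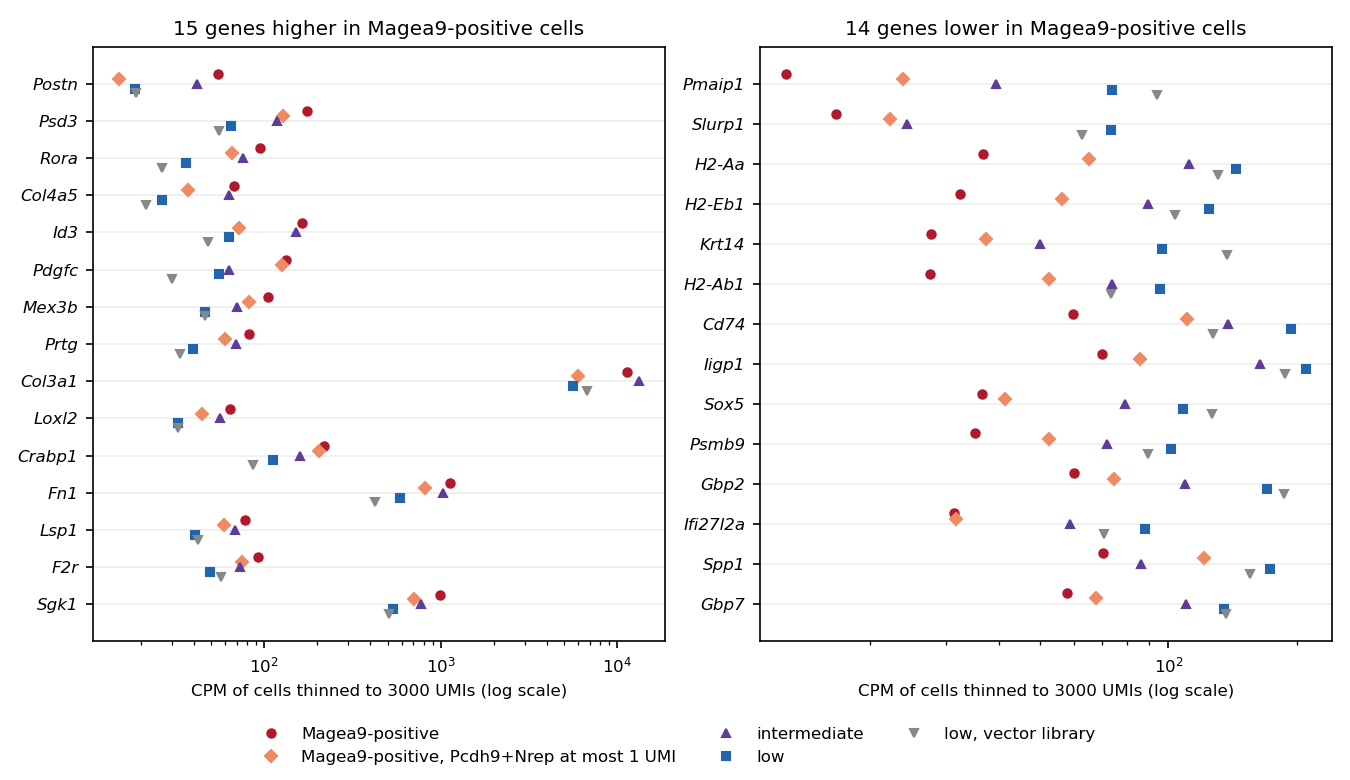
CPM (log scale) of the 15 genes named as higher and 14 of those named as lower, in Magea9-positive cells, in those with at most 1 UMI of Pcdh9 and Nrep, in intermediate cells, in low cells and in low cells of the vector library. Pdgfc and Crabp1 lie near the Magea9-positive value in both Magea9-positive sets, Postn and Id3 do not, and the class II genes are below the intermediate and low values in both.

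Of the pathway lists, matrix genes had the most members past the fold higher. Of 29 measured genes for fibrillar collagens and matrix, 10 were past 1.5-fold higher and 1 lower, and the list's median over 32 genes was 0.22, against -0.04 over all genes. Col3a1, a fibrillar collagen and one of the most abundant RNAs of these cells, was at 11387 CPM in Magea9-positive, 13252 CPM in intermediate and 5637 CPM in low cells. Fn1, fibronectin, was at 1133, 1032 and 589 CPM in these sets, and Col1a1, the main chain of collagen I, at 222, 313 and 129 CPM. Host fibroblasts make many of these RNAs, and 4 of 12 measured host fibroblast markers were higher and 1 lower in Magea9-positive cells. That list of 14 markers summed to 3487 CPM in Magea9-positive and 3245 CPM in low cells in full counts, none of its markers was at 0, and its part in the result was not tested. The 420 Magea9-positive cells with little Pcdh9 and Nrep had 0 of 27 matrix genes past the fold higher and 4 lower than low cells, where 2.83% and 7.95% of all genes were. The intermediate cells, without Magea9, had 16 of 29 higher and 0 lower, where 2.2% and 4.57% of all genes were. Both comparisons share the low cells. In the vector library, which shares no cell with them, 14 of 29 were higher and 1 lower in intermediate than in low cells, where 4.2% and 4.84% of all genes were. The host fibroblast markers are given here for the same comparisons. In the 420 cells 0 of 10 were higher and 2 lower, with a median of -0.36. In intermediate cells 5 of 12 were higher and 0 lower, with a median of 0.52, and in those of the vector library 6 of 11 and 0, with a median of 0.89.

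Other growth factor genes went both ways. Of 24 measured genes of TGF-beta, activin and BMP signalling, 3 were past the fold higher and 2 lower. Bmp2, Id3 and Pmepa1, a target and brake of TGF-beta, were the higher ones, and Fst, which binds activin, was at 2.92 CPM in Magea9-positive and 10.2 CPM in low cells. Of 5 measured genes of the PDGF system 1 was higher and 2 lower. Pdgfb, a ligand of both receptors, was at 3.66 and 14.6 CPM in Magea9-positive and low cells, and the receptor gene Pdgfrb was at 27.8 and 43.4 CPM. In the basement membrane list 1 of 14 genes, Col4a5, was higher and 3 were lower. Col4a1 and Col4a2, the chains of the common collagen IV, were at 32.4 and 29.7 CPM in Magea9-positive cells, against 59.99 and 68.6 CPM in low cells. Col4a5 and these chains thus had ratios of opposite sign.

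Genes induced by interferon gamma had the lowest median of the pathway lists. Of 15 measured genes of this list, 14 were past 1.5-fold lower in Magea9-positive than in low cells and none higher, and the median over 17 genes was -1.34. Iigp1, an interferon-induced GTPase, was at 69.7 CPM in Magea9-positive, 164 CPM in intermediate, 210 CPM in low and 188 CPM in low cells of the vector library. Gbp2, a guanylate-binding protein, was at 59.9, 109, 171 and 187 CPM in the same sets. Cd274, which encodes PD-L1, the ligand of the receptor that the treatment blocks, was at 10.965 CPM in Magea9-positive and 24.2 CPM in low cells. Ciita, the master regulator of class II genes, had no UMI in Magea9-positive and 71 UMIs in low cells, at least 5.29-fold lower from a floor of 3 UMIs over the set.

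The class II genes were lower too. H2-Aa, the class II alpha chain, was at 36.8 CPM in Magea9-positive cells, 112 CPM in intermediate, 144 CPM in low and 131 CPM in low cells of the vector library, a log2 ratio of Magea9-positive to low cells of -1.97 (-2.22 to -1.74). It was seen in 7.82% of thinned Magea9-positive and 23.04% of low cells. H2-Eb1, H2-Ab1 and the invariant chain Cd74 had ratios of -1.94, -1.79 and -1.70. These genes are also made by phagocytes, and Ptprc-positive cells of the library had H2-Aa at 1586 CPM. The macrophage and monocyte list summed to 107 CPM in Magea9-positive and 162 CPM in low cells after thinning, and to 65.7 and 88.5 CPM in full counts. All 9 of its measured genes were below 0, with 5 past the fold, and Itgam was at 0 in both sets. Without the cells of a cluster led by C1qa and C1qb the ratio of H2-Aa was -2.29, and among cells with no UMI of the macrophage list it was -2.35.

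Class I genes were lower by less. Of 17 measured genes 8 were past the fold lower and none higher, with a median of -0.48. Psmb9, a subunit of the immunoproteasome, was at 35.1 CPM in Magea9-positive and 101 CPM in low cells, a log2 ratio of -1.53 (-1.79 to -1.29). Tap2, part of the peptide transporter, was at 15.6 and 31.2 CPM in these sets. The class I chain H2-K1 and B2m, its light chain, were at 1681 and 3654 CPM in Magea9-positive, against 2341 and 4900 CPM in low cells, short of 1.5-fold. Of 18 measured genes of the type I interferon response, which share inducers with both lists, 6 were lower and none higher, with a median of -0.41.

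The interferon gamma genes were low also in Magea9-positive cells held to the same limit on Pcdh9 and Nrep as the low cells. In the 420 Magea9-positive cells with little Pcdh9 and Nrep, 12 of 15 interferon gamma genes were past the fold lower than in low cells. There 7.95% of all genes were lower, and the list's median was -1.01. In intermediate cells, where 4.57% of all genes were lower, 5 of 15 of the list were, with a median of -0.49. Both comparisons share the low cells. Magea9-positive cells against low cells of the vector library, where 4.44% of all genes were higher and 6.92% lower, gave 11 of 14 and a median of -1.24. Intermediate against low cells within the vector library, where 4.84% of all genes were lower, gave 0 of 16 and a median of 0.17. Among Magea9-positive cells, those with 2 or more Magea9 UMIs had the lower H2-Aa. Its ratio to low cells was -2.72 for them, against -1.41 for those with 1 UMI. The same split parted cells by depth, at medians of 16440 and 10982 UMIs before thinning. Top2a or Mki67 was seen in 45.3% and 39.1% of the thinned cells. The part of depth and of cycling in the H2-Aa values was not tested. The macrophage and monocyte list differed in the same split. Its median against low cells was -1.73 with 9 of 9 genes past the fold lower for cells with 2 or more Magea9 UMIs. For those with 1 UMI it was 0.07 with 0 of 9. Of all genes, 792 of 10301 and 753 of 10288 were past the fold lower in these comparisons. The part of the macrophage and monocyte list in the H2-Aa values was not tested. In the 420 cells with little Pcdh9 and Nrep that list had a median of 0.14, while H2-Aa had a ratio of -1.15.

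**Figure D3:**
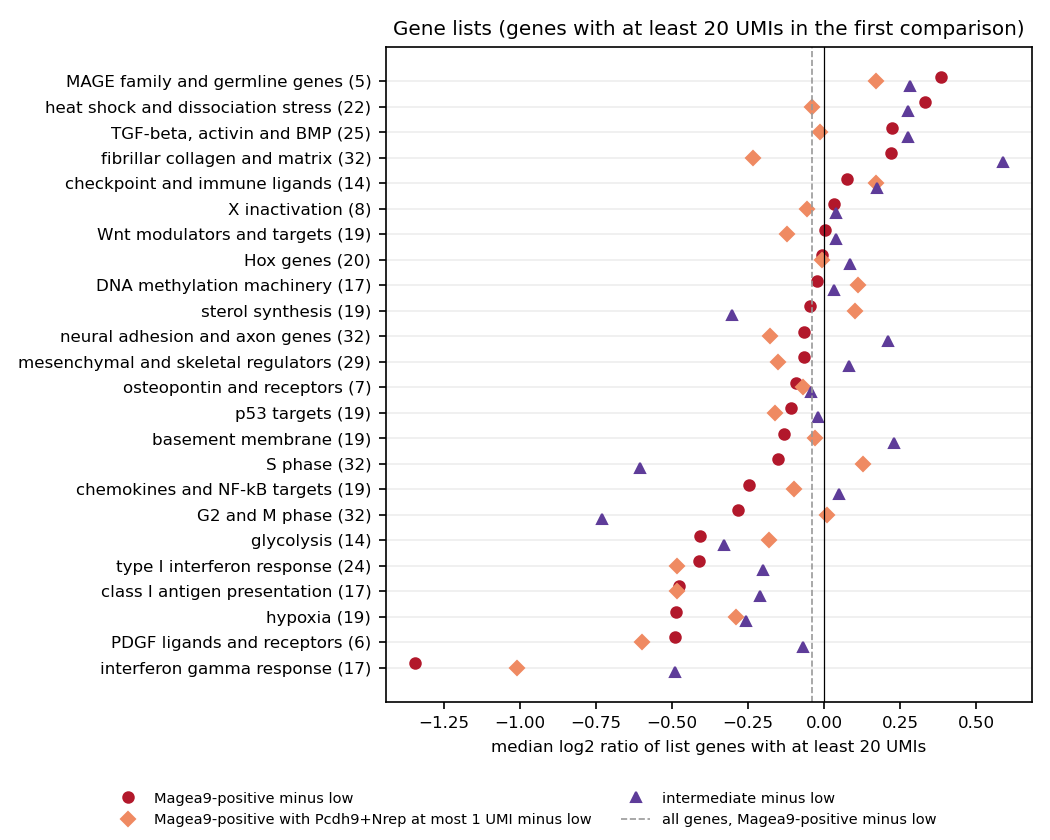
Median log2 ratio of each gene list for Magea9-positive minus low cells (red circles), Magea9-positive cells with at most 1 UMI of Pcdh9 and Nrep minus low cells (orange diamonds) and intermediate minus low cells (violet triangles), with the number of genes after each name and all genes as a dashed line. The interferon gamma list lies at -1.34, -1.01 and -0.49 in these comparisons, while the matrix list lies at 0.22, -0.23 and 0.59.

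Targets of p53 and of hypoxia held further lower genes. Pmaip1, which encodes the cell death protein NOXA, had the largest ratio of the 15 genes named as lower. It was at 12.7 CPM in Magea9-positive, 39.5 CPM in intermediate, 73.6 CPM in low and 93.9 CPM in low cells of the vector library, a log2 ratio of Magea9-positive to low cells of -2.54 (-2.97 to -2.14). Cdkn1a, the cell cycle inhibitor p21, was at 55.3 CPM in Magea9-positive and 116 CPM in low cells. In all, 5 of 17 measured p53 targets were lower and 1, Eda2r, a receptor of the TNF family, was higher. The list as a whole was little shifted, with 7 genes above 0, 10 below and a median of -0.11, against -0.04 over all genes. Of 17 hypoxia genes 6 were lower and none higher, with a median of -0.49. Egln3, an oxygen sensor, was at 9.50 and 32.4 CPM in Magea9-positive and low cells, and Higd1a, a mitochondrial protein, at 84.6 and 158 CPM. Glycolysis genes were shifted as a list, with 12 of 14 below 0 and a median of -0.41, yet only Pgk1 passed the fold.

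The remaining named genes on the lower side were Slurp1, a secreted protein of the Ly6 family, Krt14, a keratin, Sox5, a transcription factor of cartilage, Ifi27l2a, an interferon-induced gene, and Spp1. Krt14 was at 27.8 CPM in Magea9-positive and 96.7 CPM in low cells, and Slurp1 at 16.6 and 73.2 CPM. Spp1, the mouse gene of the transduced protein, was at 70.4 CPM in Magea9-positive, 86.3 CPM in intermediate, 173 CPM in low and 156 CPM in low cells of the vector library, a log2 ratio of Magea9-positive to low cells of -1.30 (-1.48 to -1.13). In the 420 cells with little Pcdh9 and Nrep it was at 121 CPM, a ratio of -0.51 that did not pass the fold. Within clusters 0 and 4 of the clustering described further on Spp1 had ratios of -1.69 (-2.13 to -1.28) and -1.51 (-2.05 to -1.01). Within cluster 2 it was at 36.9 CPM in Magea9-positive and 26.9 CPM in low cells, a ratio of 0.46 (-0.25 to 1.20). Ptprc-positive cells had 2539 CPM of it. Whether transcripts of the transgene are counted under this gene is not given in the sources used here. Among the receptors of osteopontin Cd44 was at 1264 and 1185 CPM and Itgav at 273 and 239 CPM in Magea9-positive and low cells. No receptor gene with at least 100 UMIs passed the fold. Itgb3, which was below that minimum, had 5 UMIs in the 1368 Magea9-positive and 70 in the 6123 low cells after thinning.

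Few cell cycle genes passed the fold. Top2a or Mki67, both made in dividing cells, was seen in 42.5% of thinned Magea9-positive, 30.2% of intermediate and 48.0% of low cells. All 32 measured G2 and M genes were below 0, although 3 passed the fold, with a median of -0.28. In the 420 Magea9-positive cells with little Pcdh9 and Nrep, of which 54.8% had Top2a or Mki67, the median was 0.01. Of 21 measured genes for heat shock proteins and early response factors, which tissue dissociation also raises, 18 were above 0 with a median of 0.33, although 2 passed the fold. In the 420 cells the median was -0.04. Fos, an early response factor, was at 3082 CPM in Magea9-positive and 2018 CPM in low cells, and Fosb at 743 and 469 CPM. Malat1, a nuclear RNA, was at 9091 and 5222 CPM in these sets. The part of dissociation or RNA quality in the ratios was not tested.

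Along the chromosomes the ratios were not even. Genes were put in their annotated order and cut into 197 windows of about 50 genes. In 22 windows the median log2 ratio of Magea9-positive to low cells was at or below -0.15, and in 3 it was at or above 0.15. Of the lower windows 15 lay in 3 runs of at least 3 neighbours. The first run spanned windows 5 to 11 of 12 on chromosome 1, from Chpf to Trp53bp2, where 290 of 365 genes (79.5%) were below 0 and the median was -0.20, against 0.02 in the rest of the chromosome. The second covered the last 3 of 16 windows of chromosome 2, from BC029722 to Polr3k, with 133 of 153 genes below 0 and a median of -0.26. The third took the first 5 of 11 windows of chromosome 8, from Insr to Prmt9, with 210 of 268 genes below 0 and a median of -0.24. Over all genes 5699 of 10477 were below 0. The runs were picked by these same ratios, so their medians and counts below 0 describe the choice.

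The same stretches are given here in single cells, where the gap between Magea9-positive and low cells restates the choice of the runs. The run on chromosome 1 held 2.86% of the UMIs of the median Magea9-positive cell, 3.07% in intermediate, 3.33% in low and 3.53% in low cells of the vector library. The run on chromosome 2 held 1.02%, 1.11%, 1.23% and 1.31% in these sets, and that on chromosome 8 1.80%, 1.92%, 2.09% and 2.17%. The ranges overlapped, since the middle 80% of Magea9-positive cells ran from 2.50% to 3.29% on chromosome 1 and that of low cells from 2.62% to 3.95%. Against low cells of the vector library the 3 medians were -0.26, -0.35 and -0.27. In the 420 Magea9-positive cells with little Pcdh9 and Nrep they were -0.13, -0.23 and -0.16 against low cells, and in intermediate cells -0.04, -0.13 and -0.07. These comparisons share cells with the one that picked the runs. Within the vector library, which shares none, intermediate against low cells gave 0.08, 0.00 and 0.02. The X chromosome, which carries Magea9, had a median of 0.11 over 333 genes, and chromosome 18 had 0.10. No DNA was measured, so gene copies and gene activity cannot be told apart.

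**Figure D4:**
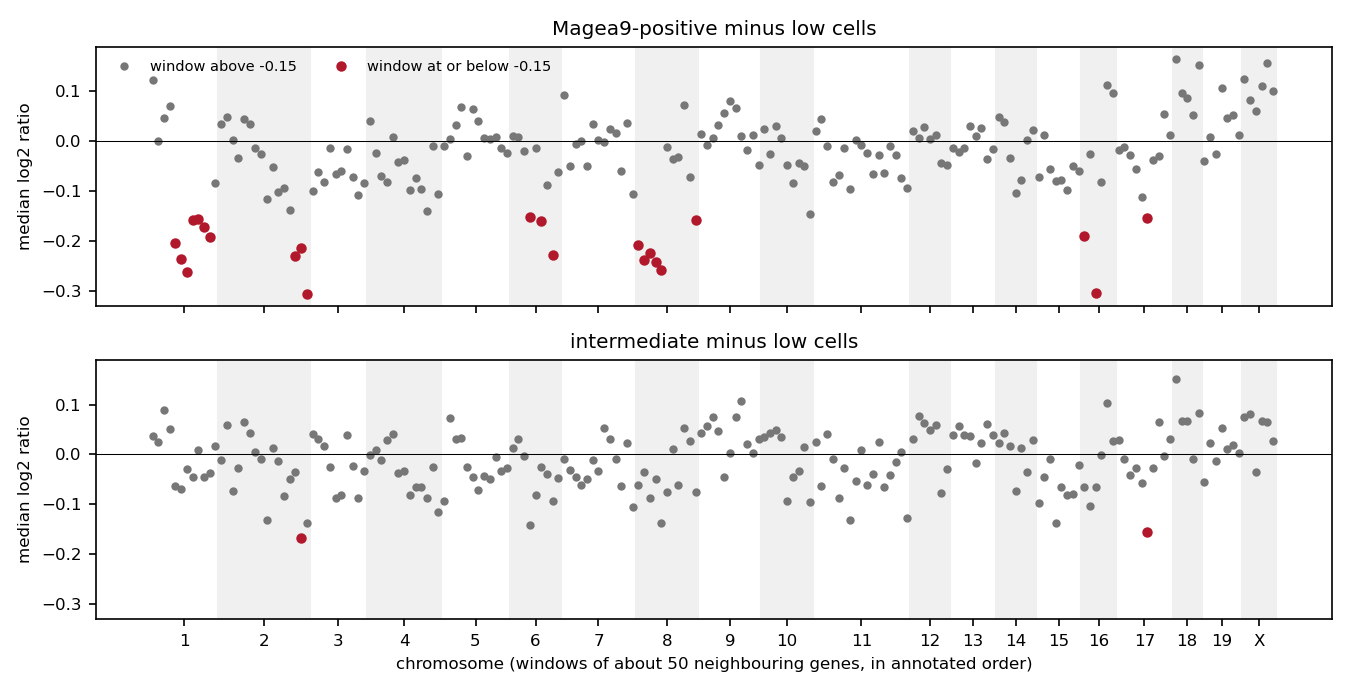
Median log2 ratio of windows of about 50 neighbouring genes, by chromosome, for Magea9-positive minus low cells (top) and intermediate minus low cells (bottom), with windows at or below -0.15 in red. The top panel has 22 red windows, with runs on chromosomes 1, 2 and 8, and the bottom panel has 2.

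Clustering without the marker and gate genes gathered the Magea9-positive cells but did not isolate them. Of the 20 nearest neighbours of a Magea9-positive cell 34.6% had Magea9, against 18.8% for intermediate and 8.02% for low cells, where 13.4% of all gated cells had it. Cluster 2, led by Eda2r, Postn and Nr4a3, held 497 of them (36.3%), and 5.06% of the low cells. Cluster 0, led by H1f5 and Depdc1a, held 19.2% and cluster 4, led by Slfn9, Uhrf1 and Mcm3, 16.7%. Cluster 1, led by C1s1, Gbp8 and Cxcl9, held 42 (3.07%) of the Magea9-positive cells and 20.1% of the low cells, and cluster 7, led by Slc7a2 and Fbxl7, held 7 and 5.81%. These clusters were made from the genes compared above, so their shares add no separate evidence.

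**Figure D5:**
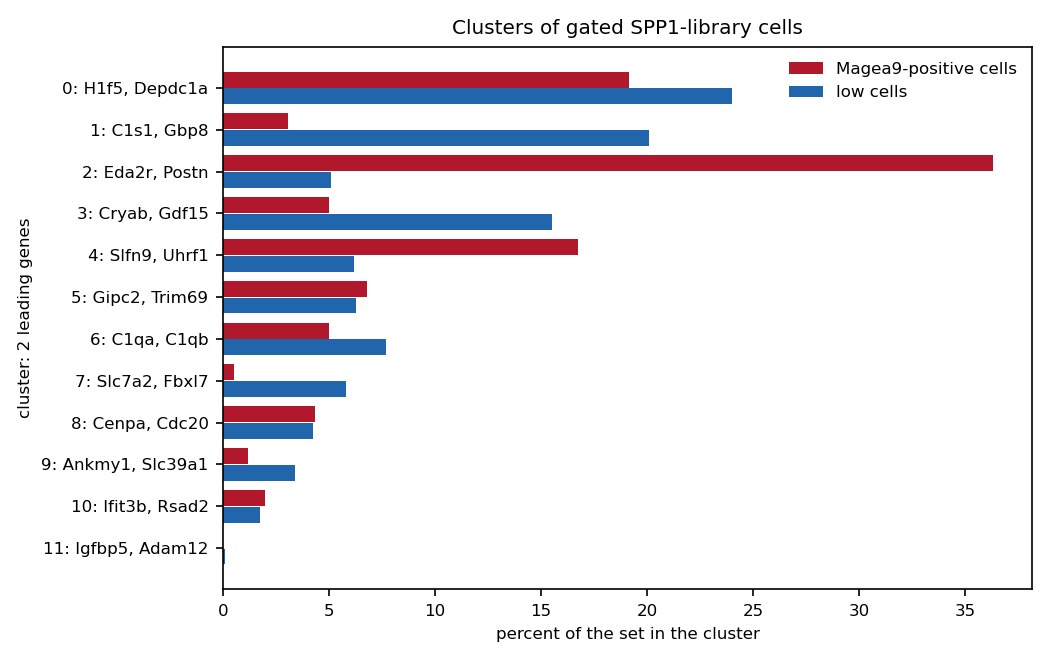
Percent of the Magea9-positive cells (red) and of the low cells (blue) of the SPP1 library in each of 12 clusters, which are named by number and 2 leading genes. Cluster 2 holds 36.3% of the Magea9-positive and 5.06% of the low cells, and cluster 1 holds 3.07% and 20.1%.

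Within clusters the groups came apart. In cluster 0, 262 Magea9-positive cells had an interferon gamma median of -1.5003 against 1468 low cells, and H2-Aa was at 33.1 and 121 CPM in them. In cluster 2 the same median was 0.04 for 497 against 310 cells, and H2-Aa was low in both, at 8.72 and 14.0 CPM (13 UMIs in each). In cluster 4 the median was -0.36 for 229 against 377 cells, and H2-Aa was at 7.28 and 23.9 CPM (5 and 27 UMIs). The interferon gamma genes were thus far lower in Magea9-positive cells of cluster 0, and near equal by their median in cluster 2. Single genes of the list varied in cluster 2, with ratios of -1.04 (-1.85 to -0.24) for Cd74, -0.003 for Gbp2 and 0.28 for Iigp1. Matrix genes had medians of 0.41, 0.23 and 0.34 in clusters 0, 2 and 4. Psd3 was higher in Magea9-positive cells within each, at log2 ratios of 1.67, 0.94 and 1.31. Pdgfc had ratios of 1.37, 0.01 (-0.34 to 0.36) and 0.75 in the same order, so it was not higher in cluster 2. The run on chromosome 1 was at -0.22, -0.06 and -0.22 in these clusters. Low cells of cluster 2 were thus close to the Magea9-positive cells of that cluster in both the interferon gamma median and the chromosome run.

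Clustered alone, the 1368 cells fell into 7 groups. The largest, 305 cells, was led by Cd55 and Cryab, a small heat shock protein. A group of 268 was led by Btg2, Nr4a3 and Fos and had the most Pcdh9 and Nrep, at 453 and 440 CPM. A group of 229 was led by the mitotic genes Aurka and Plk1, and one of 150 by the S phase genes Cdc6 and Rrm2. A group of 220 was led by Rnaseh2a and Qrfp and had little Pcdh9 (34.8 CPM). A group of 131 was led by Rsad2 and Ifit1, genes of the interferon response, and by C1qa, a phagocyte gene. The last, of 65 cells, was led by Ppm1n and Cacng7. Each of these cells was chosen for at least 1 Magea9 UMI, so the presence of Magea9 in every group restates the rule. Its level was between 97.5 and 204 CPM. Pcdh9, for which the rule sets no minimum in these cells, ran from 34.8 to 453 CPM, so the ranges are not like for like.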

How the data were processed

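Single-cell RNA libraries of 2 tumours, 1 per group, were analysed. The deposited values were raw counts of unique molecular identifiers (UMIs) per gene and barcode, checked to be whole numbers and not normalized. Per the submitters' processing notes, the tools include Cell Ranger 2.1.1 and the build is GRCm39. No source used here gives the annotation release, how cells were called, or whether free RNA or doublets had been removed. The libraries shared 93 barcodes. The Magea9-positive cells and the gene lists were chosen with earlier results of these data known.

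Each gated cell was thinned to 3000 UMIs without replacement. UMIs were then summed over each set of cells and scaled to CPM, the UMIs of a gene per 1000000 UMIs of the set. Ratios are log2 of CPM over CPM with exact conditional binomial 95% intervals, and shares have exact binomial ones. The limit beside a share of 0 is 3 counts of the total. Both cover counting error only. With 1 library per group no test across animals was possible, so no p-value is given, and a gene with at least 100 UMIs counts as past the threshold from 1.5-fold. List medians used genes with at least 20 UMIs. Up to 15 genes each way were named by size among those with at least 50 CPM in one set and an interval beyond 1.5-fold, leaving out mitochondrial, ribosomal, haemoglobin and clone-named genes. 1 gene that met this rule is not reported here. Other genes named are members of the gene lists and clusters, among the largest ratios of their list or given for their role. Chromosomes and gene order came from GENCODE M21 (GRCm38), which held 51948 of the 56941 gene identifiers.

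Gated cells were clustered by the Leiden method at resolution 0.6 on 30 components of 2000 variable genes, without Ptprc, the gate genes and the 5 marker genes. Doublets were predicted by Scrublet's method, written anew, in the SPP1 library, where 364 of 14029 barcodes (2.59%) were marked, and were left out only as an alternative. Python 3.11.15, numpy 2.4.6, scipy 1.17.1, scikit-learn 1.9.0 and leidenalg 0.10.2 were used. The ratios were tested on simulated data. Alternatives covered the thinning, the rule, the gate, doublets, cycling cells, phagocyte RNA and the minimum UMIs per gene.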

Additional observations from a re-analysis of the deposited data

How the results depend on the processing

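No paired analysis was possible because each group holds 1 library. The share of Magea9-positive cells was 5.24% after thinning and 7.30% with at least 2 UMIs. The count of genes past 1.5-fold lower was 929 without thinning and 887 with the rule applied to thinned counts. The count higher was 150 against all gated cells without Magea9 and 481 against low cells of the vector library. A minimum of 20 UMIs per gene gave 616 higher and 1536 lower, 1 UMI in each set 2270 and 2230, and leaving out the highest 1% of cells per gene 512 and 931. The lists with more genes past the fold lower than higher numbered 16, and 10 among cells without Top2a or Mki67. The windows at or below -0.15 numbered 22, and 10 for Magea9-positive cells with at most 1 UMI of Pcdh9 and Nrep. In those cells the ratio of Postn was -0.30, and the list medians that were at least 0.15 in size and took the other sign were -0.23 for matrix, -0.014 for TGF-beta, 0.13 for S phase, 0.0075 for G2 and M and -0.040 for heat shock and dissociation stress. 4 lists nearer 0 also took the other sign, at 0.10 for sterol synthesis, 0.11 for DNA methylation, -0.12 for Wnt and -0.06 for X inactivation. The S phase median was 0.0014 against all gated cells without Magea9. The interferon gamma median lay between -1.59 and -1.01 in the 14 settings that gave list medians, which exclude the gene minimums and the highest 1% of cells. Comparison with the vector library, the subset low in Pcdh9 and Nrep and both settings without phagocyte RNA were added after the data had been seen. With 1 mouse per group nothing here shows how far tumours differ, and at these depths a cell without a UMI may still hold the transcript.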
